A study of Mus musculus with 35 samples.

Results

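ERVK endogenous retroviruses were followed in male germ cells of Smg6-cKO and control mice. An ERVK subfamily was any transposable element whose name in the deposited tables carried the class ERVK and the order LTR. There were 285 such subfamilies among the 1146 elements counted beside 24411 genes, and all 285 names were also found among the 1489 repeats of the small RNA table. With a minimum of 10 counts in total, 279 subfamilies were kept in pachytene spermatocytes (Spc), 277 in round spermatids (RS) and 281 in chromatoid bodies (CB). The remaining ones were at 0 counts in Spc (6) and CB (4), and in RS 5 were at 0 while RLTR43B had 3 counts, RMER3D2 5 and ERVB4_1-LTR_MM 7. Just inside the minimum lay ERVB4_1-LTR_MM with 17 and RMER3D2 with 20 counts in Spc and RMER3D1 with 10 in CB. By name, 25 subfamilies belonged to IAP, 23 to RLTR13, 5 to ETn, 13 to MMERVK10 and RLTR10, 15 to MMERVK9 and RLTR9, 46 to RMER and 3 to MYSERV, and 155 to none of these.

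An endogenous retrovirus is a former virus fixed in the genome, with an internal region for gag, pro and pol between paired copies of a long terminal repeat (LTR) that holds the promoter. ERVK is the class related to betaretroviruses and includes endogenous retroviruses that still transpose in mice. Intracisternal A particles (IAP) mostly lack an envelope gene, whereas the IAPE branch carries one, and the early transposons (ETn) have lost their coding sequence and depend on the proteins of their ETnERV relatives (MusD). RLTR13 subfamilies are annotated only as LTRs here, a state that many copies reach when the paired LTRs recombine and the internal region is lost. In germ cells these elements are repressed by DNA methylation, by histone H3 lysine 9 methylation through TRIM28 and SETDB1, and by piRNAs, the small RNAs bound by PIWI proteins. The chromatoid body, a granule of haploid round spermatids, collects PIWI proteins together with SMG6, the endonuclease of nonsense-mediated decay.

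The cKO mice were adult Smg6(fx/fx);Ngn3Cre+ males, in which Cre under the Ngn3 promoter removes Smg6 exon 9 in germ cells from spermatogonia onwards, and controls (CTRL) were Cre-negative littermates with 1 or 2 floxed alleles, all on a mixed C57Bl/6J and SV129 background. Poly(A) RNA of sedimented Spc and RS was sequenced in 3 libraries per genotype. The series' design gives 1 mouse per Spc or RS sample, whereas the study's methods give 3 to 6 testes. RNA of CBs, immunoprecipitated with an antibody to DDX4 and pooled from several mice per library, was sequenced without poly(A) selection in 4 CTRL and 3 cKO libraries. Small RNA was sequenced in 5 Spc and 3 RS libraries per genotype, which the design calls biological replicates, although the study's methods draw small RNA from the cells used for long RNA. CB and small RNA libraries carried no number that could be matched to the labels and are lettered here.

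Total counts ran from 38129415 to 49940226 in Spc and RS libraries, from 3965541 to 16699210 in CB and from 1129056 to 2807536 repeat counts in small RNA. Smg6 itself was no check of the labels, since its count covers the whole gene and not exon 9 (4717 to 9823 normalized counts in CTRL and 7835 to 8828 in cKO libraries of Spc and RS). Sorted fractions were not alike between genotypes. The summed count of 9 late spermatid markers was 1247900 to 1647400 in CTRL RS and 85314 to 88731 in cKO RS, that of 10 macrophage markers 1406 to 2210 against 10598 to 17491, and that of 8 Leydig cell markers in Spc 5449 to 18544 in CTRL against 26584 to 55298 in cKO. In CTRL Spc 1 the late spermatid sum was 321610, against 158430 and 158580 in the other two CTRL Spc libraries. In CB the late spermatid sum was 14795 to 32399 in CTRL and 3116 to 3532 in cKO, and the sum of 8 Leydig cell markers was 106 to 441 and 296 to 2954. In bulk samples fewer cells of a type and less RNA per cell cannot be told apart. Among small RNA libraries, cKO Spc B was most like cKO RS A over 206 miRNAs (Spearman's rho 0.967, and 0.765 to 0.86 with the other cKO Spc libraries), and cKO RS B was most like cKO Spc A (0.953, and 0.846 to 0.882 with the other cKO RS libraries). Over ERVK small RNA, cKO Spc B was nearer to cKO RS (0.987 to 0.99) than to the other cKO Spc libraries (0.963 to 0.978), whereas cKO RS B was as near to cKO Spc (0.972 to 0.979) as to the other cKO RS libraries (0.977 to 0.978), and over all repeats likewise (0.977 to 0.985 and 0.976 to 0.98). The labels were kept, and the counts of calls and the fold changes between genotypes in small RNA scaled among repeats are also given without the library B of that cell type.

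A pair of scalings was applied to every long RNA comparison: trimmed mean of M values (TMM) over genes and elements together, and TMM over elements alone, with elements alone tested. They ask different things, whether a subfamily changed relative to the bulk of genes and elements and whether it changed relative to other repeats. Scaling by library size, given beside them in places, sets a subfamily against the total count instead. A call is a Benjamini-Hochberg adjusted p of at most 0.05 in edgeR's quasi-likelihood test, and fold changes are on the log2 scale with their standard error (SE) and refer to the first scaling unless stated. Going from the first scaling to the second shifted ERVK log2 fold changes by a median of 0.01 in Spc, 0.45 in RS, 0.19 in CB, -0.34 in the RS against Spc comparison of CTRL and 0.17 in that of cKO. Normalized counts of Spc and RS libraries are printed on one scale for all 12 libraries, on which differences lie a median 0.10 above the fitted values in Spc and 0.12 above them for RS against Spc in CTRL.

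ERVK RNA was a small part of each library. It took 0.706% ± 0.033 (SD, n = 3) of counts in CTRL Spc, 0.704% ± 0.123 in cKO Spc, 0.620% ± 0.003 in CTRL RS and 0.678% ± 0.152 in cKO RS, so the genotypes overlapped in both cell types. Of element counts, ERVK held 12.5 to 14.1% in every Spc and RS library. In CB, where ribosomal RNA was not removed and elements took 31.0% ± 5.2 (n = 4) of CTRL counts, the ERVK share of all counts was 2.66% ± 0.37 in CTRL and 2.55% ± 0.65 (n = 3) in cKO. The subfamilies with the highest counts in Spc and RS, uncorrected for length, were internal regions: MMERVK10C-int, an IAP-related element, and IAPEz-int. MMERVK10C-int had 16553, 10334 and 12337 normalized counts in CTRL Spc, 14566, 26410.3 and 19048 in cKO Spc, 27075, 26921 and 31083 in CTRL RS and 23355, 33835 and 14560.5 in cKO RS. Its genotypes overlapped in each cell type and it was not called in long RNA between genotypes in Spc, RS or CB (log2 fold change 0.52 in Spc and -0.23 in RS).

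In spermatocytes few ERVK subfamilies differed between genotypes. Of 279, 18 were higher and 6 lower in cKO, against a background of 13.2% higher and 12.9% lower over all genes and elements tested, and with elements scaled among themselves 22 were higher and 8 lower against 4.17% and 2.78% of all elements. Both scalings shared 13 of the higher and 5 of the lower calls. The median log2 fold change of ERVK was 0.06, that of all features -0.01 and that of other elements -0.04. With 1 library left out the ERVK median ran from -0.02 (without CTRL Spc 2) to 0.18 (without cKO Spc 1), and it was also below 0 without cKO Spc 2 and 0.18 without CTRL Spc 1, so its sign rested on single libraries.

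RLTR13 and the similarly named LTR MLTR13 were among the higher subfamilies. MLTR13 had 112, 90.7 and 106 normalized counts in CTRL Spc and 524, 525 and 616 in cKO Spc. Every cKO library was above every CTRL library (log2 fold change 2.33 ± 0.18 (SE), adjusted p = 0.000538). RLTR13A3 followed with 473, 464 and 486 in CTRL and 995, 1066 and 1159 in cKO (log2 fold change 1.08 ± 0.13 (SE), adjusted p = 0.00263). In all, 5 of 23 RLTR13 subfamilies were higher in cKO Spc and none lower (background 13.2% and 12.9%), with a median of 0.22 over the group. With 1 library left out 1 to 3 were called, 3 without CTRL Spc 1 or 3, 2 without CTRL Spc 2 or cKO Spc 2 and 1 without cKO Spc 1 or 3, and the median ran from 0.17 (without CTRL Spc 2) to 0.37 (without CTRL Spc 1). RLTR13B3 (0.84) and RLTR13B4 (0.67) were also called in both scalings, whereas RLTR13D2 (0.72) and RLTR13B2 (0.37) were called only when scaled with genes. RLTR13B2 and RLTR13B4 lost their calls when any 1 of the 6 libraries was left out.

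**Figure D1:**
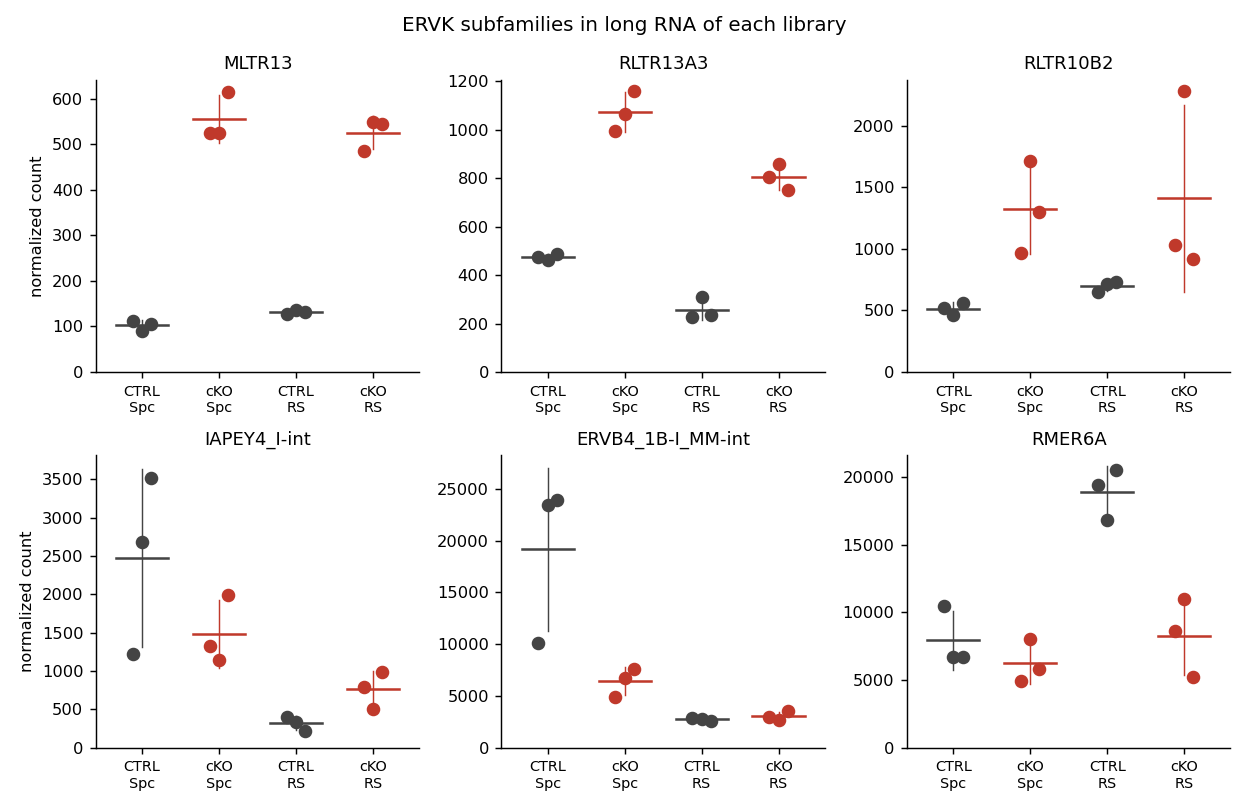
Normalized counts (linear axis from 0, one scale for the 12 libraries) of 6 ERVK subfamilies in each Spc and RS library, CTRL in grey and cKO in red, with the group mean as a horizontal line and the SD as a vertical line. MLTR13 and RLTR13A3 were higher in each cKO library than in each CTRL library of both cell types, ERVB4_1B-I_MM-int was high in CTRL Spc alone, and RMER6A was highest in CTRL RS.

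Other LTRs and internal regions changed in either direction in Spc. RLTR10B2, an LTR of the MMERVK10 family whose RLTR10B relatives serve as enhancers of germline genes in mouse spermatocytes, had 519.7, 463 and 564 normalized counts in CTRL and 970.5, 1712 and 1298 in cKO (log2 fold change 1.27 ± 0.22 (SE), adjusted p = 0.00916). RLTR20C (1.28), RLTR19A (1.06) and RLTR10B (0.93) were higher too, and each of them was called in both scalings. The lower subfamilies were led by ERVB4, a betaretrovirus-like element. ERVB4_1B-I_MM-int, its internal region, had 10085, 23467 and 23887 in CTRL Spc and 4919.7, 6707 and 7608 in cKO Spc (log2 fold change -1.67 ± 0.33 (SE), adjusted p = 0.0128). The groups did not overlap, but CTRL Spc 1, the library with the high late spermatid sum, was below the other CTRL libraries. The summed count of 8 Sertoli cell markers followed the same order of groups, with 11389, 30986 and 25334 in CTRL Spc, 6805, 7484 and 9795.2 in cKO Spc and 1937 to 2445 in CTRL RS, and 6 of the 8 were called lower in cKO Spc. Late spermatid markers were lower (9 of 9) and macrophage markers higher (8 of 10) in cKO Spc as well. The part of these marker sums in the Spc results was not tested. ERVB4_1-I_MM-int (-1.86) and ERVB4_1B-LTR_MM (-1.44) were lower as well, and without CTRL Spc 1 the fold changes were larger (ERVB4_1-I_MM-int -2.24, ERVB4_1B-I_MM-int -1.97). Calls of ERVB4_1-I_MM-int were lost when any of the other 5 libraries was left out.

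Among IAP, 1 of 25 subfamilies was higher and none lower in cKO Spc, below the 13.2% and 12.9% of all features, and with 1 library left out 0 to 2 were higher and 0 to 1 lower. IAP1-MM_I-int had 505, 441 and 379.7 normalized counts in CTRL and 749, 875 and 958 in cKO, with no overlap (log2 fold change 0.86 ± 0.17 (SE), adjusted p = 0.0137). The abundant IAPEz-int overlapped between genotypes, with 15408, 11542 and 13635 in CTRL and 11996, 17924 and 18593 in cKO (log2 fold change 0.16, adjusted p = 0.573). Of the 5 ETn subfamilies, 1 was lower: ETnERV2-int, the coding relative that supplies ETn with proteins, had 3451, 3392 and 3837 in CTRL and 2903, 3168 and 3054 in cKO (log2 fold change -0.33 ± 0.09 (SE), adjusted p = 0.039). That call was lost with any 1 library left out and when scaled among elements (adjusted p = 0.136). MMETn-int, the non-coding internal region, missed the call when scaled with genes (log2 fold change 0.55, adjusted p = 0.0504) and passed it among elements (0.55, adjusted p = 0.0247).

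In round spermatids the answer depended on the scaling. Scaled with genes, 16 of 277 ERVK subfamilies were higher and 97 lower in cKO (14.2% of the calls higher), with 37.9% of all features higher and 33.2% lower. With elements scaled among themselves, 53 were higher and 35 lower (60.2% of the calls higher), against 13.9% and 14.7% of all elements, and scaled by library size 54 were higher and 17 lower (76.1% higher). The median log2 fold change was -0.37 for ERVK and -0.44 for other elements when scaled with genes, with 0.10 over all features, and 0.09 for ERVK among elements. Calls that held in both scalings were 15 of the higher and 35 of the lower ones, and no subfamily was called in opposite directions.

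MLTR13 and 2 of 23 RLTR13 subfamilies, RLTR13A3 and RLTR13B3, were higher in cKO RS, with an RLTR13 median of -0.19 when scaled with genes and 0.27 among elements. Without cKO RS 3, 4 were higher and the median was 0.03, and by library size 7 were higher with a median of 0.37, so the sign of the median rested on that library and on the scaling. MLTR13 had 128, 137 and 131 normalized counts in CTRL RS and 485, 549 and 544 in cKO RS (log2 fold change 2.01 ± 0.15 (SE), adjusted p = 9.04e-06). RLTR13A3 had 229, 308 and 235 in CTRL and 806, 856 and 749 in cKO (log2 fold change 1.65 ± 0.16 (SE), adjusted p = 3.81e-05). For RLTR13B3 the values were 145, 139.6 and 139 and 507, 361 and 353 (log2 fold change 1.54 ± 0.19 (SE), adjusted p = 0.000191). None of these groups overlapped, and all 3 calls held in both scalings and with each library left out. The other 21 RLTR13 subfamilies were not called by edgeR when scaled with genes, so the share called higher lay below the 37.9% of all features, and among elements 7 of 23 were higher and none lower. DESeq2 called 2 higher and 3 lower of 23, and with 1 library left out edgeR called 0 to 2 lower. The difference in fold change between cell types was not called for RLTR13A3 when scaled with genes (0.46, adjusted p = 0.061) and was called among elements (1.06, adjusted p = 0.0157).

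IAP showed 2 higher and 3 lower of 25 in cKO RS when scaled with genes, and 6 higher and none lower among elements. With genes both shares lay far below the 37.9% and 33.2% of all features, and among elements 13.9% and 14.7% of all elements were called. By library size 6 were higher and none lower, and 1 was lower without CTRL RS 2, 9 without cKO RS 2, and 3 were higher and 2 lower without cKO RS 3. IAPEY4_I-int, an internal region of the IAPEY branch, had 403, 340.2 and 224 normalized counts in CTRL and 792, 506 and 983 in cKO (log2 fold change 1.25 ± 0.29 (SE), adjusted p = 0.00466). The groups did not overlap, but the order of the cKO libraries was that of their Sertoli (5435.3, 2846.4 and 8706.9), Leydig (4089.8, 1476.5 and 15638) and macrophage marker sums (14385, 10598 and 17491), whose markers were called higher (7 of 7, 7 of 7 and 10 of 10 tested) and whose part in the IAPEY4_I-int result was not tested. IAPLTR4_I (0.96), named after its values were seen, was the other IAP call higher in both scalings. The lower ones, IAP-d-int (-0.93), IAPEY2_LTR (-0.70) and IAP1-MM_LTR (-0.63), were not called among elements. IAPEz-int had 28238, 27617 and 24482 in CTRL and 25310.2, 32019 and 16332 in cKO, which overlap (log2 fold change -0.11, adjusted p = 0.639). Of the ETn group, ETnERV3-int was higher in both scalings, with 1167, 909 and 1052 in CTRL and 1668, 1637 and 1439 in cKO (log2 fold change 0.61 ± 0.12 (SE), adjusted p = 0.00216). RLTRETN_Mm, the LTR of ETn, was lower with genes (-0.50, adjusted p = 0.0107) and level among elements (-0.05, adjusted p = 0.779).

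Many RMER and RLTR9 LTRs were lower in cKO RS. RMER denotes rodent-specific medium reiterated repeats, older LTRs that no longer transpose. Of 42 RMER subfamilies 28 were lower and none higher with genes (background 33.2% and 37.9%), 15 were lower in both scalings (14.7% of all elements were lower among elements), and the median was -0.60. By library size 3 were higher and 6 lower with a median of -0.04, and with 1 library left out 22 to 33 were lower. RMER6A had 19377, 16836 and 20494 normalized counts in CTRL RS and 8598, 10955 and 5254 in cKO RS (log2 fold change -1.18 ± 0.23 (SE), adjusted p = 0.00203). RMER17C (-0.998) was lower in both scalings, and so were RMER17A (-1.02) and RMER17B (-0.91), named after their values were seen, of which RMER17B is known to supply enhancers of male germline genes. Of 15 MMERVK9 and RLTR9 subfamilies, 8 were lower with genes (background 33.2%), 5 in both scalings and 4 by library size. RLTR9A3A had 1677, 1968 and 1568 in CTRL and 544, 736 and 460.1 in cKO (log2 fold change -1.57 ± 0.18 (SE), adjusted p = 0.000119), and RLTR9C had 2536, 2354 and 2435 and 709, 1448 and 483 (log2 fold change -1.46 ± 0.34 (SE), adjusted p = 0.0052). RLTR12C had 804, 739 and 781 in CTRL and 249, 269 and 215 in cKO (log2 fold change -1.65 ± 0.14 (SE), adjusted p = 1.89e-05). The groups of RMER6A, RLTR9A3A, RLTR9C and RLTR12C did not overlap. RLTR26 (-1.57) and ERVB7_4-LTR_MM (-1.98) were lower too, the latter with 1 CTRL library far above the other two (715, 281 and 256 in CTRL against 105, 108 and 102 in cKO). Late spermatid markers were lower in the same libraries (9 of 9 called, median log2 fold change -3.88), and their part in these results was not tested.

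Library cKO RS 3 was the lowest of its group for IAPEz-int, MMERVK10C-int and RMER6A. Without it 21 ERVK subfamilies were higher and 80 lower and the ERVK median was -0.19. RLTR10B2 had 651, 717 and 732 normalized counts in CTRL RS and 1031, 2283 and 915 in cKO RS (log2 fold change 1.02 ± 0.32 (SE), adjusted p = 0.0201), without overlap, but the call was lost when any 1 CTRL RS library was left out.

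MMTV-int, the internal region of mouse mammary tumour virus, was chosen for mention after its values were seen: it had 2.50, 10.8 and 5.51 normalized counts in CTRL RS and 33.1, 9.53 and 189.8 in cKO RS. Its groups overlapped and cKO RS 3 was the highest (log2 fold change 3.63 ± 1.13 (SE), adjusted p = 0.0192). The summed Leydig cell markers had the same order in cKO RS (4089.8, 1476.5 and 15638, against 389.61 to 417.45 in CTRL RS, with 7 of 7 tested called higher), and so had the Sertoli (5435.3, 2846.4 and 8706.9) and macrophage sums (14385, 10598 and 17491), and their part in the MMTV-int result was not tested. RLTR12F, another subfamily with few counts and chosen in the same way, was higher in cKO in Spc (log2 fold change 2.59 ± 0.31 (SE), adjusted p = 0.00287), RS (1.77) and CB (1.67), in both scalings each time, with 6.996, 7.29 and 7.08 in CTRL Spc and 42.6, 40.5 and 56.2 in cKO Spc.

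**Figure D2:**
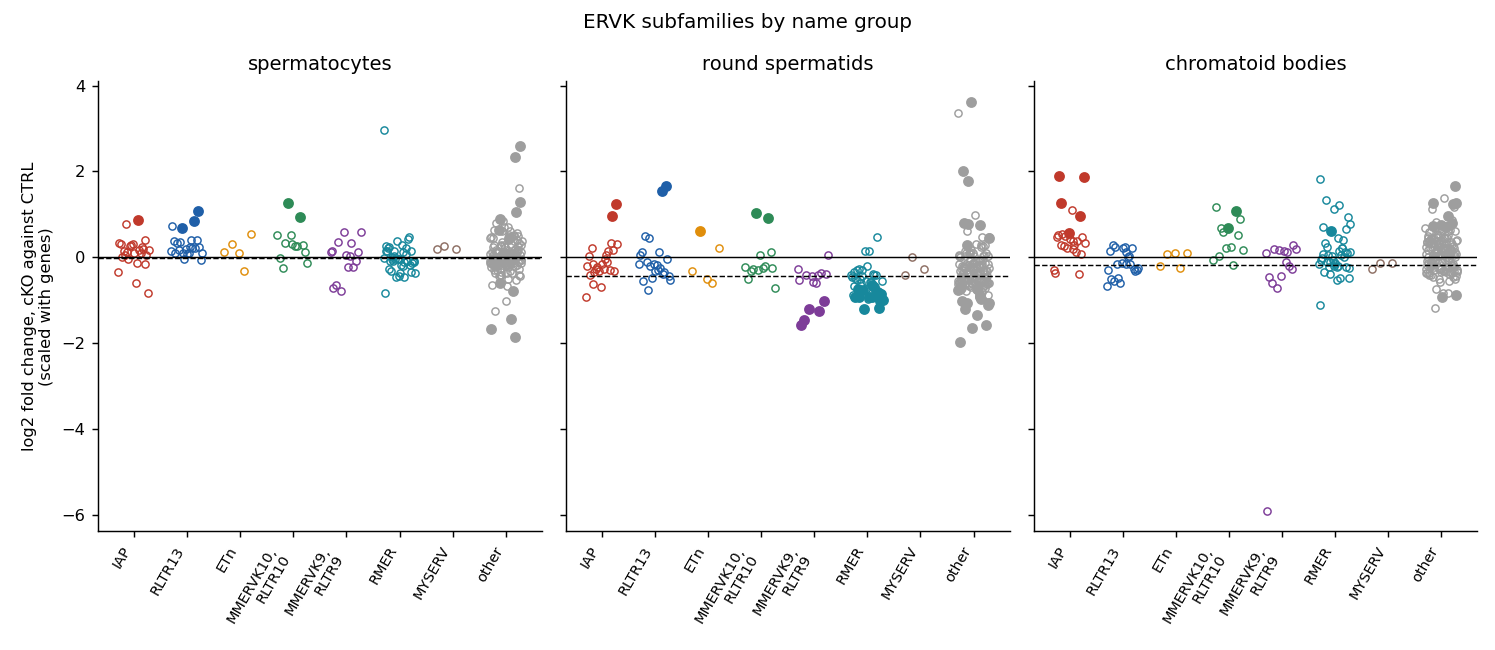
Log2 fold change of cKO against CTRL for each ERVK subfamily, scaled with genes, by name group, in spermatocytes, round spermatids and chromatoid bodies. Filled points were called in both scalings and open points were not, the solid line is 0 with genes and the dashed line is 0 among elements. The dashed line lies 0.45 below the solid one in round spermatids, RMER points lie mostly below both, and in chromatoid bodies the called IAP points lie above both.

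In chromatoid bodies 23 of 281 ERVK subfamilies were higher and 5 lower in cKO, where 15.2% of all features were higher and 17.5% lower. The higher share of the calls was 82.1%, and it was 96.5% among elements (55 higher and 2 lower, against 7.16% and 2.54% of all elements) and 68.0% by library size (17 higher and 8 lower). The median was 0.10 for ERVK, 0.01 for all features and -0.27 for other elements. The ERVK median was -0.02 by library size, -0.06 without cKO CB A, 0.0026 without CTRL CB D, 0.05 without CTRL CB A, 0.22 without CTRL CB B and 0.30 without cKO CB C, so neither its sign nor its size held with each library left out. Both scalings shared 17 higher and 2 lower calls.

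IAPE internal regions led this comparison. IAPEY4_I-int had 141, 221, 309 and 178 normalized counts in CTRL CB and 361, 1367 and 616 in cKO CB (log2 fold change 1.88 ± 0.37 (SE), adjusted p = 0.00221). IAPEY5_I-int had 72.5, 67.0, 92.0 and 46.2 and 160.0, 486 and 140.3 (log2 fold change 1.90 ± 0.39 (SE), adjusted p = 0.00261). All cKO libraries lay above all CTRL libraries for both, and cKO CB B was the highest by far. The summed count of 8 spermatogonia markers was highest in cKO CB B too, with 231.84, 765.26 and 300.05 in cKO CB and 133.33 to 203.28 in CTRL CB, and 3 of the 5 tested were called higher. Its part in the IAP result was not tested. In total 6 of 25 IAP subfamilies were higher and none lower (background 15.2% and 17.5%), with a median of 0.38. Of these 5 were also called among elements, and by library size 5 IAP subfamilies were called. Without CTRL CB A 3 were called, without CTRL CB D 4 and without cKO CB C 12. Without cKO CB B, 2 IAP subfamilies were still called higher of 8 ERVK subfamilies in all, IAPEY4_I-int (1.26) and IAPEY5_I-int (1.18). No RLTR13 subfamily was called in CB by edgeR (0 of 23, with 1 at an unadjusted p under 0.05 and 0 by DESeq2) and no ETn subfamily either (0 of 5, with 0 at an unadjusted p under 0.05 and 0 by DESeq2). Without cKO CB A 2 RLTR13 subfamilies were lower and without CTRL CB C 1, and the RLTR13 median of -0.16 ran from -0.35 (without cKO CB A) to 0.10 (without cKO CB C). RLTR13A3 had 193, 266, 184 and 184 in CTRL CB and 220.4, 161 and 136 in cKO CB, which overlap, and so did MLTR13 with 76.5, 66.1, 50.4 and 66.2 and 96.3, 89.2 and 47.9.

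Some further LTRs separated the CB groups. RLTR44B had 70.9, 91.8, 116 and 61.1 normalized counts in CTRL and 207, 253 and 151 in cKO (log2 fold change 1.27 ± 0.25 (SE), adjusted p = 0.00241), and RLTR10B had 118, 203, 203 and 171 and 376, 480.4 and 259 (log2 fold change 1.09 ± 0.24 (SE), adjusted p = 0.00448). Both were called in both scalings. RLTR26, also lower in cKO RS, had 409.5, 484, 426 and 393 in CTRL and 202, 222 and 249 in cKO (log2 fold change -0.93 ± 0.17 (SE), adjusted p = 0.00146). The largest fold change in size belonged to RLTR9E (log2 fold change -5.91 ± 1.51 (SE), adjusted p = 0.00978). It rested on CTRL CB C and D: the values were 500.4, 534, 81919.5 and 16555 in CTRL and 506, 362 and 368 in cKO, the groups overlapped, and the call was lost among elements (adjusted p = 0.067). RMER17C2 (1.34) and RLTR44C (1.37) overlapped as well and lost their calls without cKO CB B. Late spermatid markers (9 of 9 lower), Leydig cell markers (7 of 7 tested higher) and macrophage markers (3 of 5 tested higher) differed between the same CB libraries, and their part in these results was not tested.

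The change from spermatocytes to round spermatids was compared within each genotype. In CTRL, 126 of 277 subfamilies were higher and 40 lower in RS, where 36.0% of all features were higher and 38.8% lower, and the ERVK median was 0.35 (-0.07 by library size) beside -0.05 for all features and 0.37 for other elements. Among elements 78 were higher and 69 lower against 26.3% and 25.6% of all elements, which moved the higher share of calls from 75.9% to 53.1%, and by library size it was 39.3% (46 higher and 71 lower). All 78 and 40 of the lower calls were shared by both main scalings. In cKO, 10 were higher and 47 lower with genes (17.5% higher, background 18.0% higher and 25.4% lower), 50 higher and 54 lower among elements (48.1%, background 17.7% and 18.8%) and 13 higher and 28 lower by library size (31.7%). Without cKO RS 3 the cKO counts were 26 higher and 29 lower, and without CTRL Spc 1 the CTRL counts were 153 and 43.

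IAP subfamilies went in either direction in CTRL. Of 25 subfamilies 14 were higher and 5 lower in RS, 7 and 5 in both scalings and 6 and 6 by library size, where 36.0% and 38.8% of all features were called with genes. IAPEz-int rose (log2 fold change 0.87 ± 0.12 (SE), adjusted p = 0.000572), as did IAPEy-int (1.27), IAPLTR2a2_Mm (0.99) and IAP-d-int (1.07). IAPEY4_I-int fell from 1219, 2682 and 3520.4 normalized counts in CTRL Spc to 403, 340.2 and 224 in CTRL RS (log2 fold change -3.05 ± 0.41 (SE), adjusted p = 0.00042), and IAPLTR3-int fell (log2 fold change -1.20 ± 0.24 (SE), adjusted p = 0.00305) with its LTR IAPLTR3 (-0.89). In cKO the count of IAP calls was 0 higher (5 of 25 at an unadjusted p under 0.05 in either direction, 1 higher by DESeq2) and 3 lower, where 18.0% and 25.4% of all features were called. It was 2 and 2 without cKO RS 3, 1 and 1 without cKO Spc 3 and 0 and 1 without cKO RS 2 or cKO Spc 2, and the median of -0.06 ran from -0.25 (without cKO RS 2) to 0.21 (without cKO Spc 2). IAPEY4_I-int went from 1330.2, 1137 and 1985 to 792, 506 and 983 (log2 fold change -1.01 ± 0.29 (SE), adjusted p = 0.025). The genotype effect on IAPEY4_I-int differed between cell types (log2 fold change 1.97 ± 0.53 (SE), adjusted p = 0.0135). The 2 CTRL Spc libraries with the highest IAPEY4_I-int counts were those with the highest Sertoli marker sums, and the part of that sum was not tested.

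RLTR13 had 8 higher and 6 lower of 23 in CTRL RS, shares below the 36.0% and 38.8% of all features. By library size 2 were higher and 8 lower, and 5 were higher without CTRL RS 3, CTRL Spc 2 or CTRL Spc 3. RLTR13B3 (-1.46), RLTR13A3 (-0.996) and RLTR13B2 (-0.84) fell, whereas RLTR13A1 (1.23), RLTR13C3 (1.02) and RLTR13D3 (1.02) rose, all in both scalings. In cKO 1 rose, RLTR13C3 (1.12), and 7 fell (background 18.0% and 25.4%), 3 and 4 without cKO RS 3, 2 and 4 without cKO Spc 2 and 1 and 4 without cKO Spc 3, among them RLTR13D2 (log2 fold change -1.51 ± 0.20 (SE), adjusted p = 0.00127), RLTR13B2 (-1.12) and RLTR13B3 (-0.81). For ETn, ETnERV-int (0.61) and RLTRETN_Mm (0.54) were higher and ETnERV2-int (-0.70) and ETnERV3-int (-0.51) lower in CTRL RS, and RLTRETN_Mm was not called among elements (adjusted p = 0.175). ETnERV2-int was also lower in cKO RS (log2 fold change -1.01 ± 0.23 (SE), adjusted p = 0.0103).

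Outside these groups, RMER had 27 higher and 3 lower of 42 subfamilies in CTRL RS (background 36.0% and 38.8%), with 22 of the higher ones called in both scalings, and 11 higher and 9 lower by library size. RMER6A went from 10437, 6693 and 6685 normalized counts in CTRL Spc to 19377, 16836 and 20494 in CTRL RS, without overlap, and from 4919.7, 7993 and 5844 to 8598, 10955 and 5254 in cKO, with overlap. The highest CTRL Spc value was that of CTRL Spc 1, where the late spermatid marker sum was highest too (321610, against 158430 and 158580). In CTRL RS against CTRL Spc all 9 late spermatid markers were called higher and all 8 Leydig and all 8 Sertoli cell markers lower, and their part in these results was not tested. In cKO, 1 RMER subfamily was higher and 5 lower, below the background of 18.0% and 25.4%, and 4 and 3 without cKO RS 3. MurERV4_19-int fell in both genotypes, from 5967, 6456 and 7084 to 1443, 1473 and 1411 in CTRL (log2 fold change -2.29 ± 0.09 (SE), adjusted p = 2.29e-05) and from 6306, 6947 and 6505 to 1949.7, 1698 and 1606 in cKO (log2 fold change -1.95 ± 0.10 (SE), adjusted p = 0.000135). RLTR20A2B_MM fell by 2.07 in CTRL and by 2.05 in cKO on the log2 scale. ERVB4_1B-I_MM-int fell by 2.92 in CTRL, reaching 2902, 2772 and 2547 normalized counts in CTRL RS, which overlapped with 2953, 2716 and 3525 in cKO RS.

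**Figure D3:**
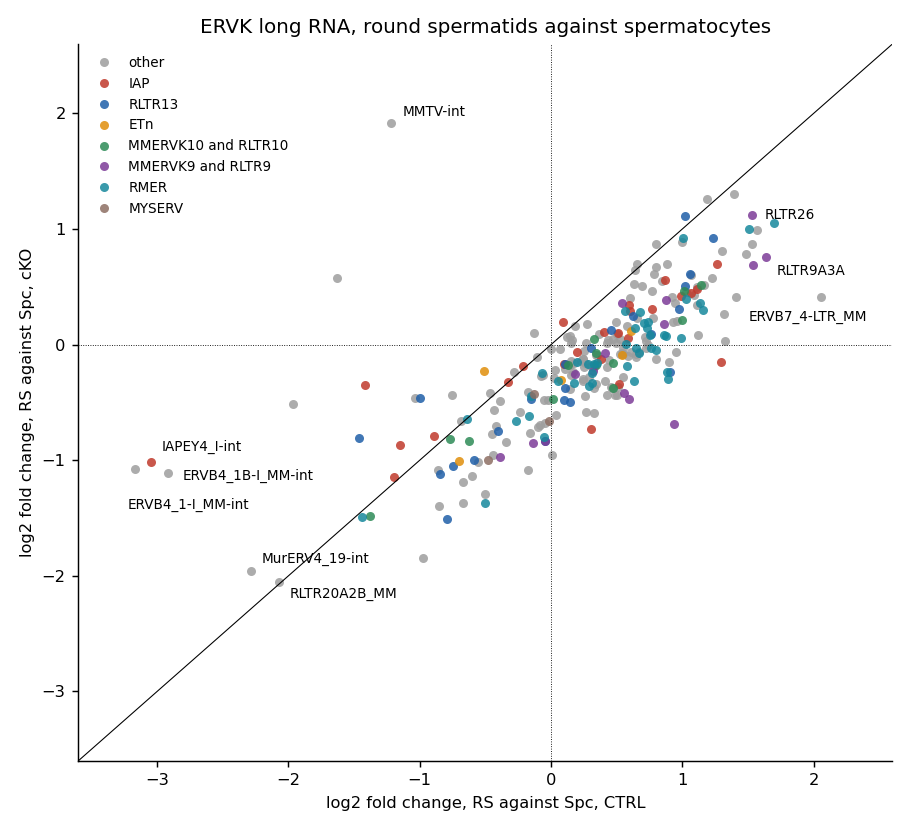
Log2 fold change of round spermatids against spermatocytes for 277 ERVK subfamilies, in CTRL on the horizontal and in cKO on the vertical axis, scaled with genes, coloured by name group. The diagonal marks equal change. Most points lie below it, MurERV4_19-int and RLTR20A2B_MM lie close to it at -2.29 and -2.07 in CTRL, and ERVB4_1-I_MM-int, ERVB4_1B-I_MM-int and IAPEY4_I-int fell more in CTRL than in cKO.

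The test of the difference itself, genotype by cell type, called 5 subfamilies higher and 58 lower with genes (7.94% of calls higher, background 19.3% and 21.1%), 13 higher and 6 lower among elements (68.4%, background 1.68% and 1.78%) and 20 and 2 by library size (90.9%). The scaling moved the ERVK median from -0.57 to 0.00, and without cKO RS 3 it was -0.36 with genes. Both scalings shared 4 higher and 6 lower calls. A higher value means that cKO against CTRL was larger in RS than in Spc: ERVB4_1-I_MM-int (log2 fold change 2.03 ± 0.58 (SE), adjusted p = 0.0174), IAPEY4_I-int and ERVB4_1B-I_MM-int (log2 fold change 1.74 ± 0.38 (SE), adjusted p = 0.00508) kept their calls with each of the 12 libraries left out. All 3 were highest in CTRL Spc 2 and 3, where the Sertoli marker sum was highest too, and in cKO RS that sum was 2846.4 to 8706.9. The lower calls shared by both scalings included RLTR9F (log2 fold change -1.70 ± 0.30 (SE), adjusted p = 0.00174), IAP1-MM_LTR (log2 fold change -1.51 ± 0.33 (SE), adjusted p = 0.00504), ERVB7_1-LTR_MM (-1.36) and RMER17A2 (-1.26). For IAP1-MM_LTR the values were 205, 112 and 134 in CTRL Spc, 246, 303 and 275 in cKO Spc, 378, 455 and 362 in CTRL RS and 279.6, 292 and 196 in cKO RS, so that cKO was above CTRL in Spc and below it in RS.

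Genes known to silence endogenous retroviruses were read in the same libraries as a list of 40, of which 39 were tested in Spc and RS and 36 in CB. In cKO Spc 9 were higher and 1 lower, beside 13.2% and 12.9% of all features. In cKO RS 26 were higher and 8 lower, beside 37.9% and 33.2%. In cKO CB 7 were higher and 4 lower, near the 15.2% and 17.5% of all features. Dnmt1, the maintenance DNA methyltransferase, was higher in cKO RS (log2 fold change 2.33) and Spc (0.80), and Setdb1, the H3K9 methyltransferase recruited by TRIM28, was higher in RS (0.90). Dnmt3l, the cofactor of de novo methylation, was lower in Spc (-2.03), RS (-2.47) and CB (-1.60), and piRNA pathway genes went in either direction in RS, with Gtsf1 (-1.32), Mael (-0.74) and Ddx4 (-0.46) lower and Tdrd5 (1.60), Mov10l1 (1.01), Piwil1 (0.81), Henmt1 (0.59), Tdrd1 (0.58) and Tdrd9 (0.51) among those that were higher. In CTRL, 8 were higher and 26 lower in RS than in Spc, beside 36.0% and 38.8% of all features, with Piwil1, the PIWI protein of pachytene piRNAs, at -3.36. Macrophage markers were higher (10 of 10) and late spermatid markers lower (9 of 9) in the same cKO RS libraries, and their part in these counts was not tested.

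Small RNA on the same subfamilies was then compared among repeats. In Spc, 61 of 229 ERVK subfamilies tested were higher and 39 lower in cKO, with 22.6% of all repeats higher and 23.7% lower, and without library cKO Spc B 65 were higher and 44 lower. In RS, 35 of 235 were higher and 29 lower (background 13.4% and 15.1%), and without cKO RS B 51 and 42. Scaled by library size the higher share of calls moved from 61.0% to 76.2% in Spc (96 higher and 30 lower) and from 54.7% to 81.7% in RS (76 and 17). Scaled by the miRNAs of the same libraries it was 81.9% in Spc (68 and 15) and 0.943% in RS (1 and 105), since miRNA scaling moved the median by 0.28 in Spc and by -0.86 in RS. The values below therefore compare a subfamily with other repeats and not with the amount of piRNA in a cell.

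All IAP subfamilies called in small RNA were higher in cKO relative to other repeats. Of IAP subfamilies 10 of 23 were higher and none lower in Spc (12 higher without cKO Spc B), where 22.6% of all repeats were higher and 23.7% lower. In RS 13 of 22 were higher and none lower (14 higher without cKO RS B), where 13.4% of all repeats were higher and 15.1% lower. The IAP medians were 0.41 and 0.80 (0.47 and 0.70 without B) beside 0.08 and 0.11 over all repeats. IAP took 0.953% ± 0.029 (SD, n = 5) of repeat counts in CTRL Spc and 1.48% ± 0.28 (n = 5) in cKO Spc, and 0.635% ± 0.028 (n = 3) in CTRL RS and 1.22% ± 0.16 (n = 3) in cKO RS. IAPEz-int had 1129, 986 and 1110.2 normalized counts in CTRL RS and 2140.4, 3275 and 2044 in cKO RS (log2 fold change 1.22 ± 0.18 (SE), adjusted p = 0.00184, and 0.97 without cKO RS B, the highest). In Spc the CTRL libraries had 2268, 2142, 2341, 2229 and 2146 and the cKO libraries 2903, 1876, 2799, 4194 and 4351, where cKO Spc B was the lowest (log2 fold change 0.54 ± 0.18 (SE), adjusted p = 0.0217, and 0.68 without it). IAPEy-int was higher in both cell types (0.84 in Spc and 1.27 in RS), and IAPLTR3-int, the IAP region with the most small RNA, was higher by 0.54 and 0.78. Without the libraries B these were 0.94 and 1.38 for IAPEy-int and 0.61 and 0.65 for IAPLTR3-int, all called. Scaled by miRNAs, 0 IAP subfamilies were higher and 1 was lower in RS by edgeR. In CTRL, 15 of 22 IAP subfamilies had less small RNA in RS than in Spc. In long RNA of cKO RS, 5 of 9 spermatocyte markers were called higher and 1 lower, and all 9 late spermatid markers lower. The part of cell composition in these and the following small RNA results was not tested.

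RLTR10B2, higher in long RNA of cKO Spc, was also higher in small RNA. Its small RNA counts were 148, 126 and 122 in CTRL RS and 353, 579.8 and 408 in cKO RS (log2 fold change 1.78 ± 0.20 (SE), adjusted p = 0.000673), and 286, 279, 248, 250.3 and 234 in CTRL Spc and 586, 404, 633, 379 and 586 in cKO Spc (log2 fold change 1.00 ± 0.14 (SE), adjusted p = 5.77e-05). No groups overlapped, and of 11 MMERVK10 and RLTR10 subfamilies 6 were higher and none lower in RS (background 13.4% and 15.1%, 8 and none without cKO RS B, 4 and none without cKO RS C or any 1 CTRL RS library, and 1 and 3 when scaled by miRNAs). In Spc 4 of 12 were higher and 2 lower (background 22.6% and 23.7%), with the same counts without cKO Spc B. Without B the RLTR10B2 fold change was 1.56 in RS and 1.08 in Spc. In Spc, RMER17B2 was also higher (log2 fold change 1.26 ± 0.18 (SE), adjusted p = 8.33e-05), as were 16 of 40 RMER subfamilies, while 4 were lower (background 22.6% and 23.7%, 18 and 5 without cKO Spc B, with RMER17B2 at 1.36).

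RLTR13F and RLTR20B2 were much lower in cKO. RLTR13F had 48.8, 47.4, 38.9, 35.8 and 43.8 small RNA counts in CTRL Spc and 7.88, 3.28, 6.00, 4.55 and 8.39 in cKO Spc (log2 fold change -2.79 ± 0.22 (SE), adjusted p = 2.02e-07), and 43.7, 54.8 and 54.9 in CTRL RS and 5.31, 5.29 and 9.21 in cKO RS (log2 fold change -2.91 ± 0.25 (SE), adjusted p = 0.000213). RLTR20B2 had 339, 266, 361, 347 and 279 in CTRL Spc and 66.4, 71.0, 56.0, 79.6 and 77.4 in cKO Spc (log2 fold change -2.18 ± 0.13 (SE), adjusted p = 1.44e-08), and 305, 304 and 345 and 75.4, 45.5 and 73.7 in RS (log2 fold change -2.27 ± 0.20 (SE), adjusted p = 0.000213). Every cKO library, B included, lay below every CTRL library for both subfamilies in both cell types, and without B the fold changes in Spc and RS were -2.64 and -2.78 for RLTR13F and -2.18 and -2.09 for RLTR20B2. RLTR20B3A_MM (-1.88 and -2.38) and RLTR44A (-1.43 and -1.59) were lower in Spc and RS too (without B -1.70 and -2.28, and -1.47 and -1.30). Within RLTR13, 4 of 21 subfamilies were higher and 5 lower in Spc, near the 22.6% and 23.7% of all repeats (4 and 6 without B). In RS none of 23 were higher and 5 lower, beside 13.4% and 15.1% of all repeats (none and 5 without B). RLTR13D1 (-0.93 and -1.16) and the abundant RLTR13D2 (-0.37 and -0.58) were lower in both (without B -0.92 and -0.87, and -0.35 and -0.61). RLTR13A3 and MLTR13, whose long RNA was higher in cKO, had few small RNA counts, 1.16 to 12.1 and 0 to 5.63 normalized counts per library. In the ETn group 2 of 5 were higher in Spc, ETnERV2-int (0.60) and ETnERV3-int (0.73), and 1 in RS, ETnERV3-int (1.23), where 22.6% and 13.4% of all repeats were higher. Without B these calls were kept at 0.44, 0.85 and 1.11.

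**Figure D4:**
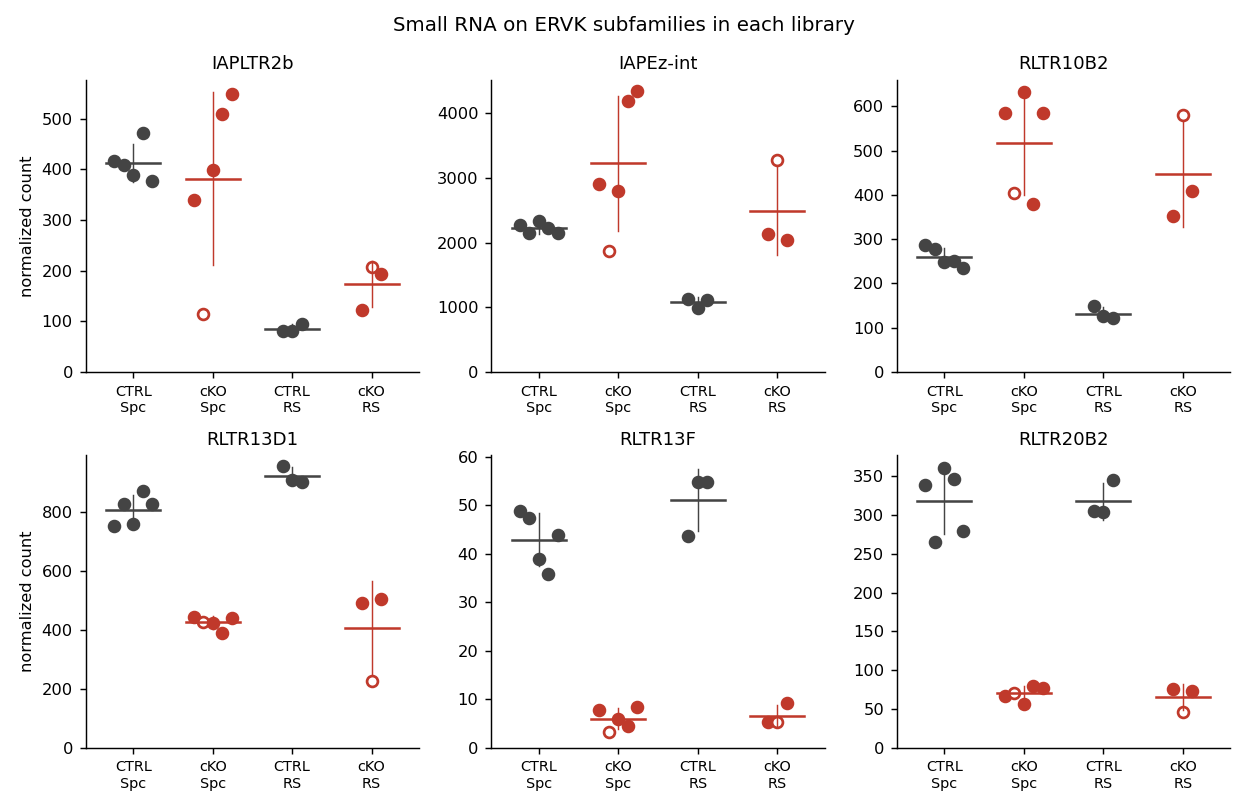
Small RNA counts of 6 ERVK subfamilies in each library (normalized among repeats, linear axis from 0), CTRL in grey and cKO in red, with the mean as a horizontal and the SD as a vertical line. Open circles are the libraries cKO Spc B and cKO RS B. RLTR13F and RLTR20B2 were low in all 8 cKO libraries, open circles included, while for IAPLTR2b the open circle of cKO Spc lies apart from the other 4 cKO Spc libraries.

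Between cell types in CTRL, 38 of 228 ERVK subfamilies had more and 51 less small RNA in RS than in Spc relative to other repeats (background 17.9% and 19.6%). The higher share of these calls was 42.7%, and it was 30.5% by library size (25 and 57), 33.3% when piRNA clusters were scaled with the repeats (27 and 54) and 97.1% by miRNAs (170 and 5), which moved the median by 0.87. IAP made up 15 of the lower calls and none of the higher ones, of 22 tested, and scaled by miRNAs 7 IAP subfamilies were higher and 4 lower, with a median that went from -0.81 to 0.06. IAPLTR2b, an IAP LTR, had 417, 409, 388, 472 and 377 in CTRL Spc and 81.3, 80.0 and 95.3 in CTRL RS (log2 fold change -2.29 ± 0.10 (SE), adjusted p = 2.75e-09), and in cKO 339, 115, 399, 509 and 548 in Spc and 122, 207 and 193 in RS. IAPLTR2a (-1.71), IAPLTR2a2_Mm (-2.02) and IAPEz-int (-1.09) were lower in RS as well, whereas 4 of 21 RLTR13 subfamilies were higher and none lower, a share near the 17.9% of all repeats. Of RLTR13, 1 was higher without CTRL RS A or CTRL Spc B, 2 without CTRL RS B, CTRL RS C, CTRL Spc A or CTRL Spc C, and 19 when scaled by miRNAs. Long RNA of IAPEz-int and IAPLTR2a2_Mm was higher in CTRL RS than in CTRL Spc, by 0.87 and 0.99 on the log2 scale. Scaled among repeats, the genotype effect on small RNA was not called different between RS and Spc for any subfamily by edgeR (0 higher and 0 lower of 224, background 0% and 0%), with 33 at an unadjusted p under 0.05, and DESeq2 called 0 higher and 2 lower. With both libraries B of the cKO left out, a setting chosen after the data were seen, edgeR called 0 higher and 1 lower and DESeq2 2 and 4. Scaled by miRNAs, edgeR called 160 lower, and the ERVK median of this difference went from -0.05 to -1.20.

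Long and small RNA were last set side by side for each subfamily. Over the subfamilies tested in both, Spearman's rho between the log2 fold changes of cKO against CTRL was 0.07 in Spc (229 subfamilies) and 0.16 in RS (235 subfamilies), given as a description because subfamilies share libraries and may share reads. In Spc 3 were higher in both (RLTR10B2, RLTR10B and RMER20C_Mm, the last named after its values were seen) and 2 lower in both (LTR10_RN and RLTR44-int). Opposite calls in Spc were 1 with higher long and lower small RNA (RLTR13D2) and 2 with the reverse (ERVB4_1B-I_MM-int and ETnERV2-int). Without cKO Spc B these opposite counts were 2 and 1. In RS 4 were higher in both (ETnERV3-int, IAPEY4_I-int, RLTR10B2 and RLTR10B) and 7 lower in both. Without the library B of that cell type, rho was 0.07 and 0.16 (229 and 238 subfamilies), the same 3 and 2 were called in Spc, and in RS the same 4 were higher and 13 lower in both. RLTR44-int, lower in both readouts of both cell types with long RNA scaled with genes, had 1212, 1365 and 1363 long RNA counts in CTRL Spc and 708, 873 and 856 in cKO Spc, and its small RNA fell by 1.24 in Spc and by 1.51 in RS on the log2 scale (fold changes without B -1.21 and -1.34). In RS its long RNA fold change with genes was -0.43, whereas scaling among elements shifted ERVK fold changes there by a median of 0.45. Long RNA lower (scaled with genes) and small RNA higher was found for 9 subfamilies in RS, 7 of them RMER. Separately, 28 of 42 RMER were lower in long RNA and 9 of 41 higher in small RNA, beside 97 of 277 and 35 of 235 ERVK. Such shares alone give some overlap, here and in the counts above, so the 7 are not read as a result about RMER. Among elements 15 RMER were lower in long RNA, and the overlap on that scale was not counted. The count of 9 rested on single small RNA libraries: without cKO RS B it was 15 (11 RMER), and without CTRL RS C 3 (2 RMER), without CTRL RS B 4 (3 RMER), without CTRL RS A 5 (3 RMER) and without cKO RS A 6 (3 RMER). MurERV4_19-int, the ERVK subfamily with the most small RNA, was the 1 case of higher long and lower small RNA in RS: its long RNA had 1443, 1473 and 1411 normalized counts in CTRL RS and 1949.7, 1698 and 1606 in cKO RS (log2 fold change 0.29), and its small RNA 47091, 47702 and 47450.5 and 33927, 36322 and 34299 (-0.43, and -0.46 without B). Neither pair of groups overlapped.

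**Figure D5:**
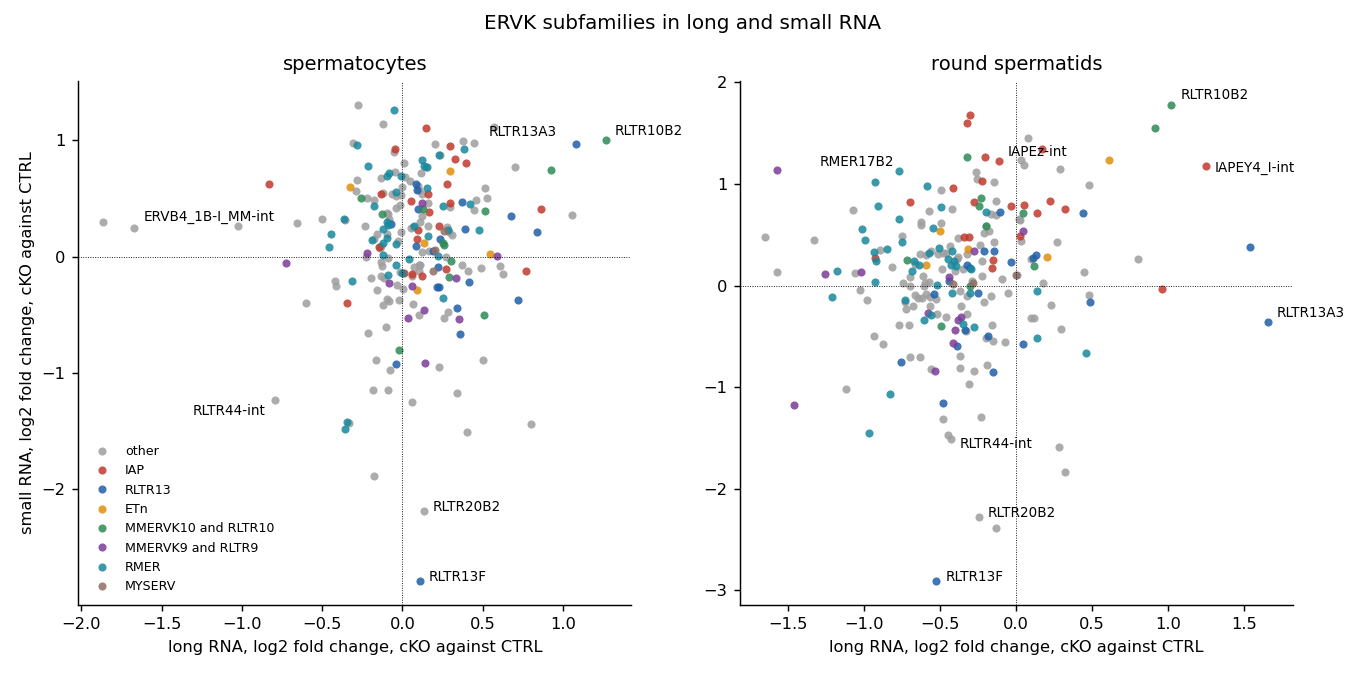
Log2 fold change of cKO against CTRL in long RNA (horizontal, scaled with genes) and in small RNA (vertical, scaled among repeats) for ERVK subfamilies tested in both, in spermatocytes (229) and round spermatids (235), coloured by name group. RLTR10B2 lies to the upper right in both panels, RLTR13A3 lies to the right, and RLTR13F and RLTR20B2 lie at the bottom near 0 on the long RNA axis.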

How the data were processed

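Reads of Spc, RS and CB libraries were aligned to GRCm38/mm10 and assigned by the authors with TEtranscripts, which deposited raw counts per gene and per repeat subfamily, one table per material. TEtranscripts shares a read that maps to many copies among them, so closely related subfamilies can exchange counts. For small RNA the deposited values are expected counts per repeat, which are not whole and were rounded here, and counts per miRNA. The submitters' notes name cutadapt 2.8, STAR 2.7.1a, HISAT2 2.1.0 and featureCounts 2.0.1. Coordinates of repeats were not used here.

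Counts were tested with edgeR 4.0.16 (R 4.3.3), quasi-likelihood, across all features of a table, with Benjamini-Hochberg adjustment over them. Genes needed 10 counts in 3 libraries, elements 10 counts in total and small RNA repeats 1 count in every library. The alternatives were TMM over elements only, library size, piRNA clusters or miRNAs as the scale, DESeq2 1.42.0, other filters, the replicate number as a block and leaving out each library. Scripts were tested on simulated counts. Members and lists were chosen with earlier results of these data known. Named were IAP, RLTR13 and ETn members with a mean of at least 100 normalized counts, the 5 most abundant members of each table and up to 5 members per direction and comparison with the largest called fold changes and means of at least 100 (20 for small RNA), besides those said to be chosen after their values were seen. The series' design calls the Spc and RS libraries biological replicates, but sources differ on how many mice made a sample, so p-values measure the spread between these libraries. Within each group, all libraries differed from each other by more than sampling noise (chi-square per degree of freedom at least 2.11). Pairs of libraries from different groups were not compared in this way.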

Additional observations from a re-analysis of the deposited data

Results flagged for a closer look

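In 3 of 94 groups of 4 or 5 libraries examined, a single library stood apart from the others of its group by Dixon's criterion. By chance about 1 of 20 groups meets this criterion, so the 3 are no more than chance gives. ERVB2_1A-I_MM-int had 267.2 normalized counts in CTRL CB B, with 164.7 in the nearest library. RMER17B2 small RNA had 61.26 in CTRL Spc B, with 45.73 in the nearest, and RMER13A small RNA had 36.35 in cKO Spc E, with 26.17 in the nearest.

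The effect of genotype on long RNA differed between RS and Spc for 13 of the named subfamilies, by edgeR's test of the difference. It was larger in RS for ERVB4_1-I_MM-int (2.03), IAPEY4_I-int (1.97), ERVB4_1B-I_MM-int (1.74) and ERVB4_1B-LTR_MM (1.38). It was smaller in RS for RMER17A2 (-1.26), ERVB7_1-LTR_MM (-1.36), IAP1-MM_LTR (-1.51), RLTR9F (-1.70), ERVB7_4-LTR_MM (-1.73), IAP1-MM_I-int (-0.92), IAPEY2_LTR (-1.11), RLTR13B2 (-0.35) and RLTRETN_Mm (-0.70). When scaled among elements, RLTR13B2 (0.25, adjusted p = 0.579), RLTRETN_Mm (-0.13, adjusted p = 0.68), IAP1-MM_I-int (-0.37, adjusted p = 0.175) and ERVB7_4-LTR_MM (-1.13, adjusted p = 0.284) were no longer called by edgeR, and the other 9 were.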

How the results depend on the processing

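Calls higher and lower, in that order, scaled among elements, were 53 and 35 in round spermatids, 55 and 2 in CB, 78 and 69 for RS against Spc in CTRL, 50 higher in cKO, and 13 and 6 for genotype by cell type. By library size they were 54 and 17, 17 and 8, 46 and 71, 28 lower in cKO, and 20 and 2. For small RNA, library size gave 96 higher in Spc, 76 and 17 in RS and 25 higher for RS against Spc in CTRL, and miRNA scaling gave 15 lower in Spc, 1 and 105 in RS, 170 and 5 in CTRL and 160 lower for genotype by cell type. DESeq2 gave 11 lower in Spc, 17 higher for RS against Spc in cKO, 8 higher for genotype by cell type, 24 higher for small RNA in CTRL and 2 lower for small RNA by genotype and cell type, or 2 and 4 without both libraries B, where edgeR called 1 lower. With no filter beyond 1 count, 8 were lower in CB. Directions turned by library size for RLTRETN_Mm in RS (0.0545) and for IAPLTR1_Mm (-0.038) and IAPLTR2_Mm (-0.0093) in CTRL, and for RLTR13B2 by genotype and cell type (0.25 among elements and 0.29 by library size). With miRNA scaling small RNA turned in RS for IAPLTR3-int (-0.0284), IAPEY3_LTR (-0.0459), IAPEY3-int (-0.34), IAPLTR3 (-0.0768) and IAP1-MM_I-int (-0.0798), and in CTRL for IAPLTR3-int (0.49), IAPLTR2_Mm (0.45), IAPEY3_LTR (0.31), IAPEY4_I-int (0.0775), RLTRETN_Mm (0.0069), IAPEY3-int (0.62) and IAPLTR3 (0.0347). The cause was not tested for any of these.

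Leaving out 1 library gave 6 to 17 higher and 1 to 6 lower calls in Spc, 8 to 21 and 66 to 119 in RS, 8 to 54 and 2 to 15 in CB, 84 to 153 and 34 to 43 for RS against Spc in CTRL, 3 to 26 and 25 to 41 in cKO, and 3 to 6 and 32 to 96 for genotype by cell type. For small RNA the ranges were 53 to 65 and 34 to 44 in Spc, 20 to 51 and 22 to 42 in RS, 23 to 36 and 42 to 52 in CTRL, and 0 and 0 for genotype by cell type. In Spc the lowest counts came without CTRL Spc 3 (6 higher and 2 lower) and without cKO Spc 1 (1 lower), with 9 higher without CTRL Spc 2, cKO Spc 2 or cKO Spc 3. In RS 8, 8 and 9 were higher without CTRL RS 1, 2 and 3. In CB 10 were higher without CTRL CB A, 11 without CTRL CB D and 54 without cKO CB C, and 15 were lower without cKO CB A, 3 without CTRL CB B or cKO CB C. For RS against Spc in cKO, 3 were higher without cKO RS 1 or cKO Spc 1 and 6 without cKO RS 2, and 25 were lower without cKO Spc 2, 30 without cKO Spc 3 and 29 without cKO RS 3. For genotype by cell type 96 were lower without CTRL Spc 1, 35 without CTRL Spc 2, 36 without CTRL Spc 3 or cKO Spc 2 and 32 without cKO RS 3. Small RNA in RS had 20, 22 and 22 higher without CTRL RS A, B and C, and 23 were higher in RS than in Spc without CTRL RS C.

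Over 18 pairs of libraries with the same number in different groups, the correlation of deviations ran from -0.21 to 0.55, and 5 were over 0.1. Between Spc and RS it was -0.16, -0.14 and -0.18 in CTRL, so numbers did not pair those libraries. In cKO it was -0.04, 0.55 and 0.27, too few pairs to tell whether numbers pair them, and the main test in cKO used no pairing. With the replicate block 12 higher and 5 lower were called in Spc, 11 and 89 in RS, 107 and 35 for RS against Spc in CTRL, 18 and 54 in cKO, and 4 and 53 for genotype by cell type. No paired analysis was possible for CB and small RNA because the columns of those tables carry no replicate number of the labels, and the alternative of spermatocyte libraries numbered 1 to 3 was not run for the same reason. What depth limits was not tested.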
